A study of Macaca mulatta with 4 samples.

Results

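Granule cells are the small glutamatergic neurons of the cerebellar cortex. They are born from precursors in the external granule layer, leave the cell cycle, migrate inwards past the Purkinje cells and form synapses with mossy fibres in the internal granule layer. Reelin made by granule-lineage cells, adhesion molecules such as contactins and cadherins, and neurotrophins are known for their parts in migration and in the wiring of these neurons. The nuclei described here, named as maturing granule cells, are a group marked by CHRM3, the M3 muscarinic acetylcholine receptor that signals through Gq and phospholipase C, and by NTF3, which encodes neurotrophin-3, the main ligand of the receptor TrkC. They were chosen by a rule on the counts of each barcode. A barcode needed 500 or more genes and 0 UMIs (unique molecular identifiers, the count of captured RNA molecules) of SLC1A3, GAD2, MKI67 and TOP2A, which mark glia, inhibitory neurons and dividing cells. A barcode that passes both conditions is called eligible below, which does not bar oligodendrocytes, microglia, vascular cells or unipolar brush cells. Of 6 lists of 5 genes, lettered A to F, list C (CHRM3, CLSTN2, CDH6, NTF3 and CHST9) then had to have 2 or more genes detected and more than each other list. The rule was met by 1968 of 32587 barcodes with 500 or more genes and of 16638 eligible barcodes.

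The data came from single-nuclei RNA sequencing of fetal rhesus macaque cerebellum, taken from the hemispheres by the labels and also from part of the vermis by the study's methods. Each group held 2 fetuses, 1 library each, so every comparison of groups rests on 2 against 2 fetuses. The controls were a female and a male fetus of 130 days of gestation whose mothers had no intervention. The exposed fetuses were a female of 131 days and a male of 133 days, delivered after an intra-amniotic injection of 1 mg of lipopolysaccharide (LPS), a bacterial product used as a model of chorioamnionitis. Unless a library is named, values are given in the order control female, control male, LPS female and LPS male. The LPS fetuses were older than the controls, so exposure and age cannot be told apart.

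The 4 libraries held 34282015 to 61665690 UMIs, and between each pair of libraries 16 to 22 barcodes were shared, none of them a CHRM3 NTF3 nucleus in both. The libraries of the female fetuses stood apart from those of the males. The median UMI number of the CHRM3 NTF3 nuclei was 4269 and 3847 in the control and LPS females against 1744 and 2478 in the males, and their mitochondrial share was 0.222% and 0.189% against 0.0147% and 0.0242%. Of 9632 genes tested in these nuclei, 23.5% were higher in both female than in both male libraries and 39.9% were lower, against 11.1% higher and 6.94% lower in both LPS than in both control libraries. Sex and whatever else set these 2 pairs of libraries apart cannot be told apart, and values within each sex are therefore given beside the pooled ones.

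The CHRM3 NTF3 nuclei numbered 498, 682, 386 and 402 and contributed 2153201, 1291646, 1501380 and 1146747 UMIs. Markers of granule neurons were read first. All 16 genes of a granule cell identity list (RBFOX3, PAX6, NEUROD1, members of the ZIC, NFI and MEF2 families and others) were detected in every library, with a summed level of 8487, 10105, 8112 and 9428 CPM (UMIs of a gene per 1000000 UMIs summed over the nuclei). In free RNA, the RNA of barcodes with at most 100 UMIs, the same genes summed to 8370, 7979, 7582 and 8132 CPM, so that the list as a whole was little above it in the females. NFIA stood at 2321, 1908, 2171 and 1822 CPM and NFIB at 2283, 1253, 2442 and 1290 CPM, a large part of this sum. NEUROD1, a factor of early granule neurons, was below its free RNA level in every library, at 216.4, 89.8, 260.4 and 145.6 CPM against 515.8, 104.4, 567.0 and 287.6 CPM. So were MEF2C and SLC17A7, the latter at 25.1, 44.1, 28.6 and 50.6 CPM against 93.7, 56.4, 73.8 and 116.7 CPM. RBFOX3, which encodes the neuronal nuclear protein NeuN, stood at 1555, 4649, 1290 and 3605 CPM, higher in both male libraries, against 828.4, 1841, 704.9 and 1306 CPM in free RNA. Markers of other cell types were at lower sums: 6 astroglial markers at 491.5 to 1072 CPM, 6 oligodendrocyte markers at 243.1 to 569.4 CPM and 7 Purkinje cell markers at 105.3 to 276.4 CPM. Most of the astroglial sum was SLC4A4, at 661.8, 477.7, 438.3 and 962.7 CPM, while FGFR3 was at 0 in 3 libraries and at 1 UMI in the LPS male. Among the oligodendrocyte markers PDGFRA stood at 242.9, 199.7, 367.0 and 156.1 CPM and MBP at 34.4, 38.7, 75.9 and 341.0 CPM, and OLIG1 was at 0 in these nuclei and in the free RNA of all 4 libraries. Microglial markers summed to 14.7 to 24.8 CPM, unipolar brush cell markers to 9.33 to 19.4 CPM, inhibitory interneuron markers to 16.7 to 33.97 CPM, endothelial markers to 19.4 to 27.9 CPM and fibroblast markers to 2.62 to 24.0 CPM. Choroid plexus markers summed to 15.7 to 30.2 CPM in 3 libraries and to 483.6 CPM in the LPS female. Markers of proliferation, of which the rule set MKI67 and TOP2A to 0, summed to 31.0 to 69.2 CPM.

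A minority of the nuclei did not carry RBFOX3. Nuclei without an RBFOX3 UMI numbered 27, 12, 31 and 50, or 5.42%, 1.76%, 8.03% and 12.4% of the CHRM3 NTF3 nuclei. Their share was higher in both LPS libraries than in both controls, and they held 2.31%, 2.53%, 7.97% and 5.12% of the UMIs. Their median UMI number was 1310, 2866, 3985 and 787, in the LPS female close to the median of all the CHRM3 NTF3 nuclei. The share of the CHRM3 NTF3 nuclei and the tests of genes within them were therefore also made without them, while the comparison with the other lists was not.

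The genes of list C chose the nuclei, so their levels are a description. CLSTN2, a calsyntenin of postsynaptic membranes, was the most widely detected, with a UMI in 97.8%, 93.5%, 95.3% and 81.1% of the CHRM3 NTF3 nuclei. CHST9, a sulfotransferase that acts on N-acetylgalactosamine in glycan chains, was found in 90.4%, 63.9%, 82.4% and 84.3%. NTF3 was found in 65.1%, 34.8%, 51.8% and 45.8%. The control male, whose nuclei were the shallowest, was lowest for both CHST9 and NTF3. CHRM3 was found in 44.8%, 46.3%, 61.1% and 30.6%. CDH6, a type II cadherin, was the least detected, in 37.3%, 10.997%, 25.9% and 32.6%. A UMI of CHRM3 was thus missing from 38.9% to 69.4% of the nuclei, depending on the library.

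Depth and free RNA both bear on such shares. With each nucleus thinned to 1000 UMIs, which left out 15, 48, 3 and 61 shallower CHRM3 NTF3 nuclei, CHRM3 was detected in 23.0%, 34.4%, 36.6% and 17.6% of the CHRM3 NTF3 nuclei, and NTF3 in 26.9%, 21.6%, 20.6% and 20.5%. In nuclei with 3 or more UMIs of the astroglial gene SLC1A3, which should lack both genes, the thinned shares were 3.35%, 3.42%, 5.17% and 1.10% for CHRM3 and 4.57%, 2.48%, 3.83% and 2.56% for NTF3. The shares of the CHRM3 NTF3 nuclei were higher for both genes in all 4 libraries, which the rule favours, at median depths of 1744 to 4269 UMIs against 2802 to 5544 in the SLC1A3 nuclei. CDH6 was closer to the SLC1A3 nuclei. Its thinned share was 10.1%, 5.52%, 8.88% and 16.1% in the CHRM3 NTF3 nuclei against 4.75%, 5.79%, 4.02% and 4.21% in the SLC1A3 nuclei and 0.977%, 0.658%, 0.44% and 2.06% in the nuclei of list B. In the control male it was thus below the SLC1A3 nuclei but above the list B nuclei. Free RNA, profiled in barcodes with at most 100 UMIs, was estimated to make up 12.2%, 17.2%, 13.9% and 29.7% of the UMIs of the CHRM3 NTF3 nuclei, the most in the LPS male.

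**Figure D1:**
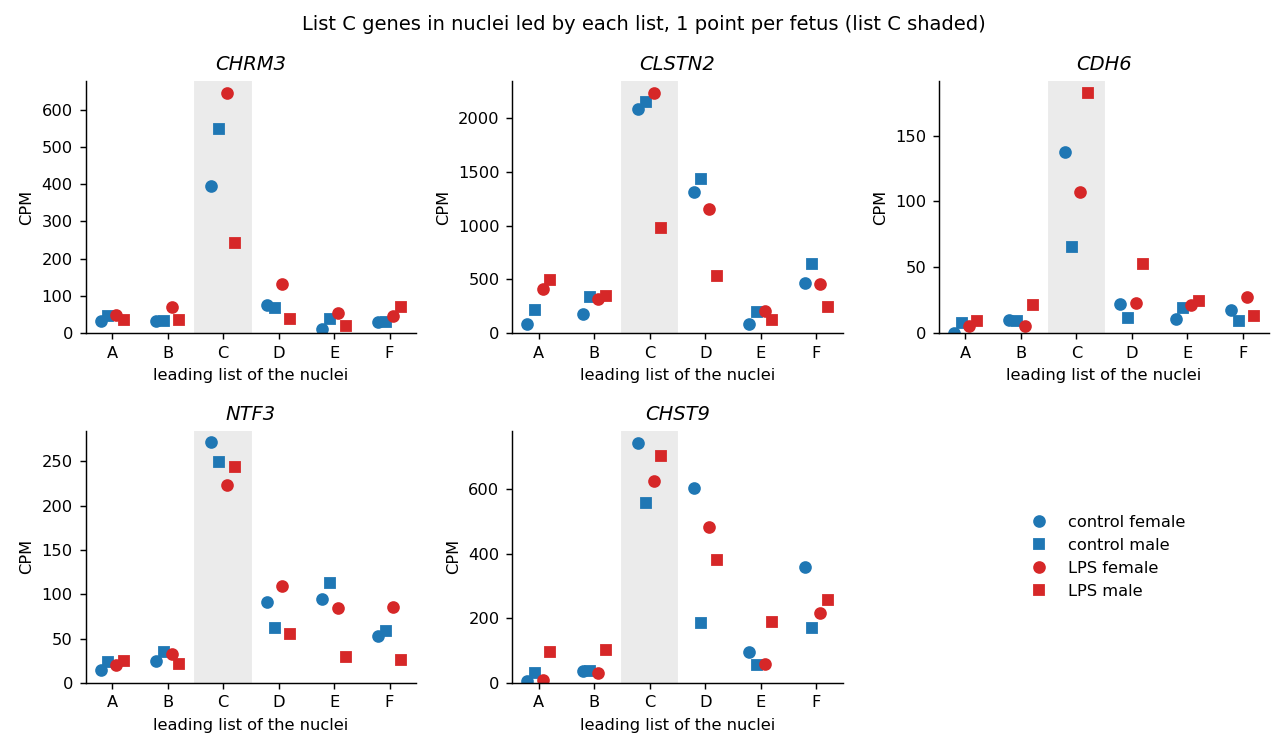
Level of the 5 list C genes in CPM (vertical axes) in eligible nuclei led by each of the lists A to F (horizontal axes), with 1 point per fetus, blue for control and red for LPS, circles for female and squares for male. In every fetus each gene was highest in the list C nuclei, which the rule fixes, and the LPS male was the lowest of the 4 for CHRM3 and CLSTN2 there and the highest for CDH6.

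The summed levels differed in how closely they marked the group. In the CHRM3 NTF3 nuclei CHRM3 stood at 394.3, 548.9, 644.7 and 240.7 CPM, and in the nuclei of list D, the next highest in both female libraries, at 74.9 and 132.2 CPM. CLSTN2 stood at 2083, 2147, 2239 and 977.5 CPM, and the list D nuclei (led by TRPC7, HCRTR2, GRM3, NECAB1 and GRM5) followed at 1318, 1431, 1160 and 528.0 CPM. CHST9 stood at 743.1, 557.4, 624.1 and 701.1 CPM against 603.7, 184.0, 483.0 and 379.9 CPM in list D. CLSTN2 and CHST9 were thus shared with list D to a larger extent than CHRM3. NTF3 stood at 271.7, 249.3, 223.1 and 243.3 CPM in the CHRM3 NTF3 nuclei, the most even of the 5 genes across fetuses, at 14.0 to 34.6 CPM in the nuclei of lists A and B and at 26.1 to 112.6 CPM in those of lists D, E and F. CDH6 stood at 137.5, 65.0, 107.2 and 182.3 CPM and at no more than 52.2 CPM in any other list. The low control male and high LPS male values of CDH6 were the extremes of its range.

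Nuclei at the edge of the rule were compared as a description. Of the CHRM3 NTF3 nuclei, 75, 398, 84 and 177 had only 2 list C genes, and in 62.7%, 41.7%, 45.2% and 47.5% of these the pair was CLSTN2 with CHST9. In the control female CHRM3 was at 62.9 CPM in these nuclei and at 435.6 CPM in those with 3 or more list C genes. A further 328, 423, 301 and 343 nuclei had 2 or more list C genes but tied with another list and were left out; in the control female they stood at 235.6 CPM of CHRM3 and 155.8 CPM of NTF3. The nuclei just outside the rule thus held as much CHRM3 as, or more than, those just inside in that library. In the control male the order was the other way, with 406.8 CPM of CHRM3 just inside and 262.7 CPM in tied nuclei. A total of 634, 247, 421 and 228 nuclei led list C but were left out for a UMI of one of the 4 barred genes, which was SLC1A3 in 562, 195, 376 and 187 of them. A single UMI bars a nucleus, and the female libraries, with more UMIs per nucleus, had more barred nuclei: 38.4% and 43.7% of their barcodes were eligible against 62.9% and 59.5% in the males.

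Genes that the rule did not use were ordered by their smallest ratio, over the 4 libraries, of CPM in the CHRM3 NTF3 nuclei to CPM in the nuclei of the other 5 lists together. The lists are not independent of other genes of the same nuclei, so these ratios carry no test. Of 6440 genes at a mean of 20 CPM or more, 11 were higher in the CHRM3 NTF3 nuclei by at least 1 on the log2 scale in all 4 libraries and 19 were lower by as much. NECTIN3, an immunoglobulin-like adhesion molecule of cell junctions, stood at 1336, 863.2, 1269 and 545.0 CPM against 509.4, 346.5, 515.8 and 209.2 CPM in the other lists. EDIL3, a secreted integrin ligand, stood at 2051, 948.4, 2115 and 649.7 CPM against 753.0, 399.3, 805.2 and 239.0 CPM. CNTN5, a contactin of axons, stood at 1093, 531.9, 868.5 and 544.1 CPM against 386.3, 203.0, 334.0 and 237.2 CPM. Each of the 3 was higher by more than 1 on the log2 scale in each fetus, at smallest log2 ratios of 1.30, 1.25 and 1.19.

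The same pattern held for FRMPD4, a scaffold protein of the postsynaptic density, with log2 ratios of 1.10 to 1.31, for PLPPR4, a lipid phosphatase-related protein of glutamatergic synapses, with 1.10 to 1.28, and for KIFC3, a minus-end kinesin, with 1.10 to 1.42. OTULINL led the order at log2 ratios of 1.43 to 1.66, but its level was only 28.0 to 42.6 CPM. IL20RB, a subunit of cytokine receptors for the interleukin-20 family, had ratios of 1.16 to 2.30, with the control male at 9.29 CPM and the other libraries at 65.9 to 74.8 CPM. ITGB6, IMPDH1, OCA2, B3GAT2 and FRMD4B completed the named genes of the 15, with 2 genes that have an identifier only, at smallest ratios of 0.88 to 1.12. EDIL3, CNTN5, FRMD4B and FRMPD4 also stand on a list of 13 genes with which the study marked maturing granule cells. It did so on these same samples, so their place here is not independent evidence. Of the 13 genes 5, these 4 and CADM2, were highest of all 6 lists in the CHRM3 NTF3 nuclei of every fetus, against 1.27% of the 6440 genes outside the rule. CNTN2 of the same list was highest there in no fetus.

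**Figure D2:**
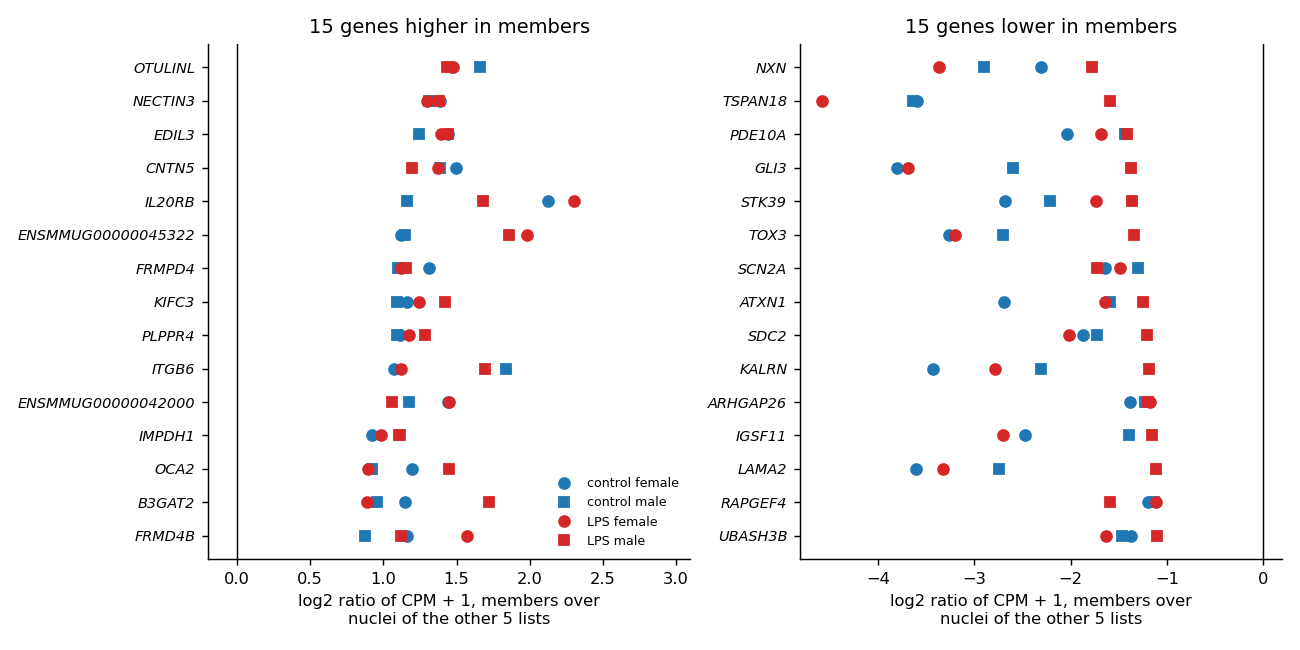
Log2 ratio of CPM + 1 in the CHRM3 NTF3 nuclei over the nuclei of the other 5 lists (horizontal axes), for the 15 genes outside the rule with the largest smallest ratio (left) and the 15 with the smallest largest ratio (right), with 1 point per fetus. All 4 fetuses lie on the same side of 0 for each gene, which the order of choice fixes, and the LPS male lies nearest to 0 for GLI3, TOX3, KALRN and LAMA2.

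The genes lower in the CHRM3 NTF3 nuclei included the hedgehog effector GLI3, at 45.0, 83.6, 65.9 and 111.6 CPM against 641.2, 512.8, 865.5 and 290.2 CPM in the other lists. KALRN, a protein of dendritic spines, stood at 60.8, 112.3, 77.9 and 127.3 CPM against 664.2, 561.0, 544.3 and 291.8 CPM. SCN2A, a voltage-gated sodium channel of axons, stood at 59.9, 68.9, 44.6 and 211.0 CPM against 189.7, 171.6, 126.8 and 701.8 CPM. For GLI3 and KALRN the log2 ratio was smaller in size in the LPS male, at -1.37 and -1.19, than in the other fetuses, at -3.80 to -2.60 and -3.43 to -2.31, and the free RNA share was also highest there. The nuclei of the other lists also differed in mix, with 934 list E nuclei in the LPS male against 94, 95 and 41 in the other fetuses. The part of free RNA or of this mix in that difference was not tested.

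Genes of known stages of granule cell development placed the CHRM3 NTF3 nuclei between the other lists. CNTN2, the contactin TAG-1 that premigratory granule cells carry, stood at 107.7, 113.0, 127.2 and 116.9 CPM in the CHRM3 NTF3 nuclei against 335.4, 398.2, 443.3 and 346.4 CPM in the nuclei of list B (led by RASGEF1B, FSTL4, HUNK, EBF3 and ARSF). DCX, the doublecortin of migrating neurons, stood at 119.8, 91.4, 137.9 and 107.3 CPM against 240.8, 159.1, 244.2 and 180.4 CPM in list B. Both genes were thus lower than in list B in every fetus. The study placed CNTN2 at a later stage, as a marker of maturing granule cells that had left the external granule layer. At the late end, GABRA6, the GABA-A receptor subunit typical of mature granule cells, had 3, 3, 0 and 20 UMIs in all CHRM3 NTF3 nuclei, and 51.6 to 125.3 CPM in the nuclei of list E (led by RAB37, PTK2B, GABRB2, MEGF11 and SLIT3). GRM4, a presynaptic glutamate receptor of parallel fibres, stood at 140.7, 235.4, 115.2 and 287.8 CPM against 580.2, 712.9, 359.8 and 1051 CPM in list E. RELN, which encodes reelin, was highest of all 6 lists in the CHRM3 NTF3 nuclei of every fetus, at 4289, 3493, 4126 and 2640 CPM against 2149 to 3284 CPM in list D.

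**Figure D3:**
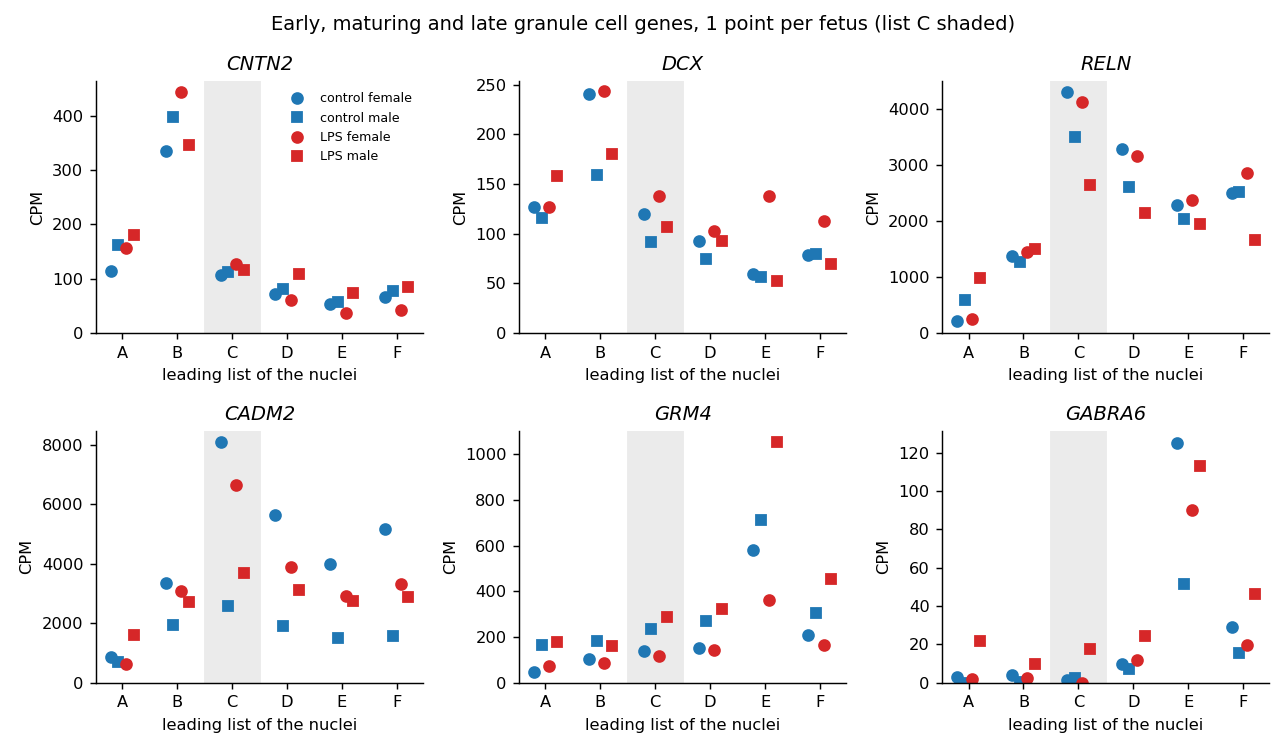
Level in CPM (vertical axes) of 2 genes high in list B (CNTN2, DCX), 2 genes high in the CHRM3 NTF3 nuclei (RELN, CADM2) and 2 late genes (GRM4, GABRA6) in eligible nuclei led by each list (horizontal axes), with 1 point per fetus. CNTN2 and DCX peak in list B, RELN and CADM2 in list C (shaded) and GRM4 and GABRA6 in list E.

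Lists of genes related to the 5 markers were then read the same way, over members at a mean of 20 CPM or more. Over the 6440 genes at that level outside the rule, 82 (1.27%) were highest of all 6 lists in the CHRM3 NTF3 nuclei of every fetus and 26 (0.404%) were lowest. Of 7 neurotrophin and receptor genes none but NTF3, which the rule used, was highest in all 4 fetuses. NTRK3, the TrkC receptor for NTF3, was high at 1838, 1364, 1383 and 2430 CPM, but it was as high in list D, at 1936, 1498, 1580 and 2230 CPM, and lower in list B, at 400.9 to 968.5 CPM. Ligand and receptor were thus detected in the same summed nuclei. Of 12 genes of muscarinic signalling, PRKCB, a protein kinase C, was highest in list C in every fetus, beside CHRM3, which the rule used. PLCB1, the phospholipase that Gq activates, stood at 2531, 1877, 2190 and 2251 CPM, above list B at 804.0 to 1524 CPM and below list D at 2164 to 2983 CPM. Of 17 glutamate receptor genes, GRIN2B and GRIK2, of the NMDA and kainate types, were highest in list C in every fetus, as were ASTN1, the astrotactin of glial-guided migration, and PLXNA2, a semaphorin receptor, of 20 genes of migration and guidance. None of 14 granule identity genes was highest in all 4 fetuses. Of 18 genes of the synaptic vesicle cycle, SNAP25 was lowest of all 6 lists in each fetus.

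The first comparison of groups asked whether CHRM3 NTF3 nuclei took another share of the eligible nuclei after LPS. They made up 14.0% (exact 95% interval 12.9 to 15.2), 12.6% (11.7 to 13.5), 12.8% (11.6 to 14.0) and 8.66% (7.87 to 9.51) of the eligible nuclei. These intervals cover counting error only. The mean share was 13.3% in controls and 10.7% after LPS. The LPS male was below the other 3 fetuses, while the LPS female lay between the controls. edgeR's quasi-likelihood test was run over 7 classes, the 6 lists and the 928, 1989, 737 and 1915 nuclei led by none. The log2 fold change of LPS over control was -0.31 (SE 0.78, edgeR adjusted p = 0.92). Its spread was estimated over the 7 classes together, so it is not that of this share alone between fetuses. The SE was 0.22 as a share of the 6 lists and 0.32 with list E left out of these.

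The share after thinning every nucleus to 1000 UMIs gave the same order for the males and another for the females, at 12.1%, 10.5%, 12.5% and 6.80%. Within the sexes the log2 ratio of LPS to control was -0.13 for the females and -0.54 for the males, and 0.04 and -0.63 after thinning. Without the LPS male, with 1 LPS fetus left and so given with no test, the log2 fold change was -0.05 and after thinning 0.14. As a share of the nuclei led by one of the 6 lists the values were 18.9%, 19.9%, 16.9% and 14.7%, with both LPS fetuses below both controls and a log2 fold change of -0.29 (edgeR adjusted p = 0.55). The nuclei led by list E numbered 94, 95 and 41 in the first 3 fetuses and 934 in the LPS male, and both denominators hold them. With the list E nuclei left out of the denominator, a choice made after seeing the data, the shares were 19.6%, 20.4%, 17.2% and 22.4%, so that the LPS male was the highest of the 4, at a log2 fold change of -0.01 (edgeR adjusted p = 0.96).

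**Figure D4:**
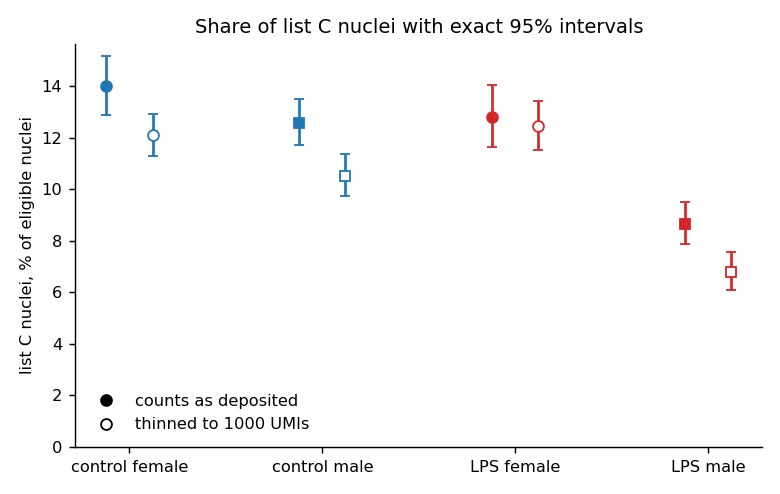
Share of CHRM3 NTF3 nuclei among eligible nuclei (vertical axis, percent) in each fetus, from the counts as deposited (filled) and after thinning to 1000 UMIs (open), with exact 95% intervals of counting error. The LPS male lies below the other 3 fetuses, at 8.66% and 6.80%.

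The CHRM3 NTF3 nuclei also carried UMIs of the neighbouring lists, given here as a description, since the rule asked for fewer genes of these lists than of list C. With each nucleus thinned to 1000 UMIs, 33.7%, 34.1%, 25.6% and 52.8% had a UMI of a list B gene, and 58.6%, 45.6%, 50.4% and 51.0% of a list D gene. On the counts as deposited the shares were 70.7%, 49.1%, 59.8% and 71.6% for list B and 78.3%, 61.0%, 77.5% and 69.2% for list D. After thinning, the difference of LPS minus control was 5.28 percentage points for list B and -1.38 for list D. The direction was opposite in the sexes. List B genes were found in fewer nuclei of the LPS female than of the control female, and in more of the LPS male than of the control male. For list E the shares were 3.11%, 2.997%, 2.09% and 16.1%, with the LPS male alone above the rest, where GABRB2 of that list was also high in free RNA, at 291.3 CPM against 49.2 to 71.8 CPM.

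The UMIs of the CHRM3 NTF3 nuclei were summed per fetus and tested for differences between LPS and control. A gene was called at an adjusted p under 0.1 and a log2 fold change over 0.25 in size. Of 9632 genes tested by edgeR none was called (0%). At an unadjusted p under 0.05 there were 76 (0.789%), with 61 higher and 15 lower after LPS. The DESeq2 test called 1 gene, BCAS1, with 66 at an unadjusted p under 0.05. The median log2 fold change of all genes tested was 0.0027. The edgeR test above had no term for sex, so the difference between the female and male libraries entered its spread. Its lack of calls therefore does not show that no gene differed. With sex as a block in the edgeR model, 26 genes were called (0.27%), 21 higher and 5 lower. At an unadjusted p under 0.05 there were 581 genes with this block, against 76 without it. In 4 libraries this block leaves little from which to estimate the spread of each gene. The p-values with the block therefore lean on the spread shared across genes. With the nuclei without RBFOX3 left out as well, 9 genes were called of 9382 (0.0959%), all of them among the 26. These were RBMS3, COL25A1, TTR, ANO4, ENSMMUG00000006383, ENSMMUG00000008417, CALD1, SPON1 and ONECUT2. Of these, ENSMMUG00000006383 stood at 15.8, 0, 91.2 and 8.72 CPM, so that its groups overlapped. Its free RNA level was 62.2, 2.40, 505.2 and 24.5 CPM, and its log2 fold change was -0.12 without the LPS female. Without the block, 0.352% of these 9382 genes had an unadjusted p under 0.05 by edgeR.

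The 5 genes of list C chose the nuclei, so their fold changes are a description with no test. The log2 fold change was -0.06 for CHRM3, -0.39 for CLSTN2, 0.44 for CDH6, -0.19 for NTF3 and -0.01 for CHST9. NTF3 alone had both LPS libraries below both controls, a pattern that 6.94% of all genes tested had. Its log2 ratio of LPS to control was -0.28 in the females and only -0.035 in the males. The sexes differed in sign for the others: CHRM3 was higher in the LPS than in the control female and lower in the LPS than in the control male, at log2 ratios of 0.71 and -1.19, and CDH6 was the reverse, at -0.36 and 1.47. CLSTN2 was little changed in the females, at 0.10, and at -1.13 in the males.

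The genes named for their fold were the 10 highest and 10 lowest among genes with an unadjusted p under 0.05, a mean of 20 CPM or more and groups that did not overlap. In the unblocked test none of them passed the adjusted threshold with edgeR, and BCAS1 passed it with DESeq2 (adjusted p = 0.017). The lower genes were spread over many nuclei. CALD1, the actin-binding protein caldesmon, stood at 137.9, 124.6, 40.6 and 41.0 CPM, a log2 fold change of -1.71 (SE 0.32, edgeR adjusted p = 1.00, and 0.0035 with sex as a block). Its UMIs came from 191, 113, 34 and 33 nuclei. SPON1, the axon guidance protein F-spondin, stood at 88.2, 80.5, 36.0 and 34.9 CPM, a log2 fold change of -1.27 (SE 0.34, adjusted p = 1.00, and 0.052 with the block). The SPON1 fold was smaller in size without the condition on the barred genes, as given with the alternatives below. ONECUT2, a transcription factor, stood at 85.9, 25.5, 15.3 and 6.98 CPM, a log2 fold change of -2.36 (SE 0.79, adjusted p = 1.00, and 0.0071 with the block). In each of these 3 genes both LPS fetuses lay below both controls. The same held in free RNA, at 176.5, 171.7, 133.1 and 82.5 CPM for CALD1 and 138.9, 139.2, 92.2 and 118.2 CPM for SPON1. For ONECUT2 the free RNA level was 22.6, 20.4, 7.22 and 8.17 CPM. CALD1 and SPON1 were higher in free RNA than in the CHRM3 NTF3 nuclei in every library. The part of free RNA in these folds was not tested.

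ANXA3, an annexin, stood at 38.1, 34.1, 14.7 and 5.23 CPM (log2 fold change -1.83, SE 0.60) and was called with the block at an edgeR adjusted p of 0.092, but not with RBFOX3 asked for as well. Its free RNA level was higher in every library and followed the same order, at 49.3, 37.2, 24.1 and 13.4 CPM. NMNAT3, ADAMTS6, PEX5L, AMER3, ADAMTS7 and ENSMMUG00000017004, listed as PPA2 in the reference, completed the lower 10, at log2 fold changes of -1.62 to -1.07, and none of these 6 was called with the block. With the nuclei without RBFOX3 left out, all 10 lower genes kept groups that did not overlap and their median log2 fold change went from -1.24 to -1.52. The 10 genes had been chosen for such groups in the same libraries. The nuclei left out held only 2.31% to 7.97% of the UMIs, so this is a description and not independent evidence. In the nuclei of the other lists CALD1 had log2 fold changes of -0.37 in list B, -0.98 in list D, -1.04 in list F and -1.67 in list E, and of 0.04 in list A. DGKG, a diacylglycerol kinase and the fifth lower gene called with the block, stood at 356.2, 393.3, 179.2 and 198.0 CPM (log2 fold change -1.01, edgeR adjusted p = 0.045 with the block, not called with RBFOX3 asked for as well).

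The higher genes fell into those carried by few nuclei and those spread over many. BCAS1, a gene of newly formed oligodendrocytes, stood at 33.0, 10.1, 373.7 and 99.4 CPM, a log2 fold change of 3.39 (SE 0.90, edgeR adjusted p = 1.00, and 3.8e-06 with the block). In the LPS female its 561 UMIs lay in 15 nuclei, 554 of them in nuclei without RBFOX3. Without those nuclei BCAS1 stood at 7.13, 10.3, 5.07 and 48.7 CPM, and the groups overlapped. EPB41L2, TNS3 and SOX6, the last a transcription factor of oligodendrocyte precursors among other cells, behaved alike, with 224 of 237, 153 of 161 and 345 of 367 UMIs of the LPS female in nuclei without RBFOX3. Their log2 fold changes of 2.35, 2.09 and 1.84 became 0.49, 0.93 and 0.04. These 4 of the 10 higher genes lost more than 50% of their log2 fold change in this way, and 4 of the 10 kept groups that did not overlap. All 10 had been chosen for groups that did not overlap.

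COL25A1, a transmembrane collagen of neurons, was spread over 63, 42, 85 and 145 nuclei. It stood at 46.0, 39.5, 114.6 and 226.7 CPM, a log2 fold change of 1.94 (SE 0.41, edgeR adjusted p = 1.00, and 0.0071 with the block), and without the nuclei lacking RBFOX3 also at 1.94. In free RNA COL25A1 stood at 122.4, 79.2, 129.1 and 240.8 CPM, also highest in the LPS male. This was above its level in the CHRM3 NTF3 nuclei in every library. The part of free RNA in its fold was not tested. RBMS3, an RNA-binding protein, stood at 19.5, 64.3, 106.6 and 193.6 CPM, with a log2 fold change of 1.87 (SE 0.58, edgeR adjusted p = 1.00, and 0.0023 with the block). Without the nuclei lacking RBFOX3 it was 1.84 (edgeR unadjusted p = 0.047), at 16.6, 58.8, 62.2 and 201.3 CPM. Of the 160 RBMS3 UMIs of the LPS female 74 lay in those nuclei, and the LPS female came close to the control male without them. In free RNA RBMS3 stood at 183.3, 280.9, 187.6 and 167.2 CPM, above the CHRM3 NTF3 nuclei in all but the LPS male. Without the condition on the 4 barred genes, a choice made after seeing the data, RBMS3 had a log2 fold change of 0.39. OPCML, an adhesion molecule of the IgLON family, stood at 140.3, 96.8, 375.7 and 545.9 CPM, and at 83.2, 91.3, 65.9 and 495.4 CPM without those nuclei, so that only the LPS male remained high, where OPCML stood at 500.1 CPM in free RNA. MBP, the myelin basic protein, stood at 34.4, 38.7, 75.9 and 341.0 CPM. Of its UMIs 36.5%, 52%, 66.7% and 69.3% lay in the 5 nuclei with the most, so few nuclei set much of its level. In free RNA MBP was at 570.0 CPM in the LPS male against 180.1 to 250.4 CPM in the others. With free RNA subtracted the log2 fold change was 4.49 for MBP and 2.10 for OPCML, against 2.45 and 1.91 before. MBP was itself among the markers that set the free RNA share, so its value after subtraction is not independent of that share. With sex as a block the edgeR adjusted p was 0.0028 for OPCML and 0.015 for MBP, and neither was called with RBFOX3 asked for as well. GABRB2, a GABA-A receptor subunit and a list E gene that the rule used, stood at 10.2, 8.52, 14.7 and 82.8 CPM.

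ENSMMUG00000008417, which has no symbol in the files, completed the higher 10, at 9.29, 5.42, 69.9 and 18.3 CPM, and its level in free RNA, at 14.4, 3.60, 56.9 and 17.1 CPM, followed the same order. With free RNA subtracted its log2 fold change was 2.68 against 2.54 before, and without the LPS female it was 1.15. TTR, the transthyretin of choroid plexus epithelium, was called with the block. It stood at 9.29, 4.65, 424.9 and 1.74 CPM in the CHRM3 NTF3 nuclei and at 2830 CPM in the free RNA of the LPS female, against 5.94 CPM in that of the LPS male, and the LPS libraries lay on either side of the controls. Of its 638 UMIs in the LPS female 280 lay in nuclei without RBFOX3, and 40.6% of them in 5 nuclei. The part of free RNA in these values was not tested. Of the 21 genes called higher with the block, 12 had most of their LPS female UMIs in nuclei without RBFOX3.

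**Figure D5:**
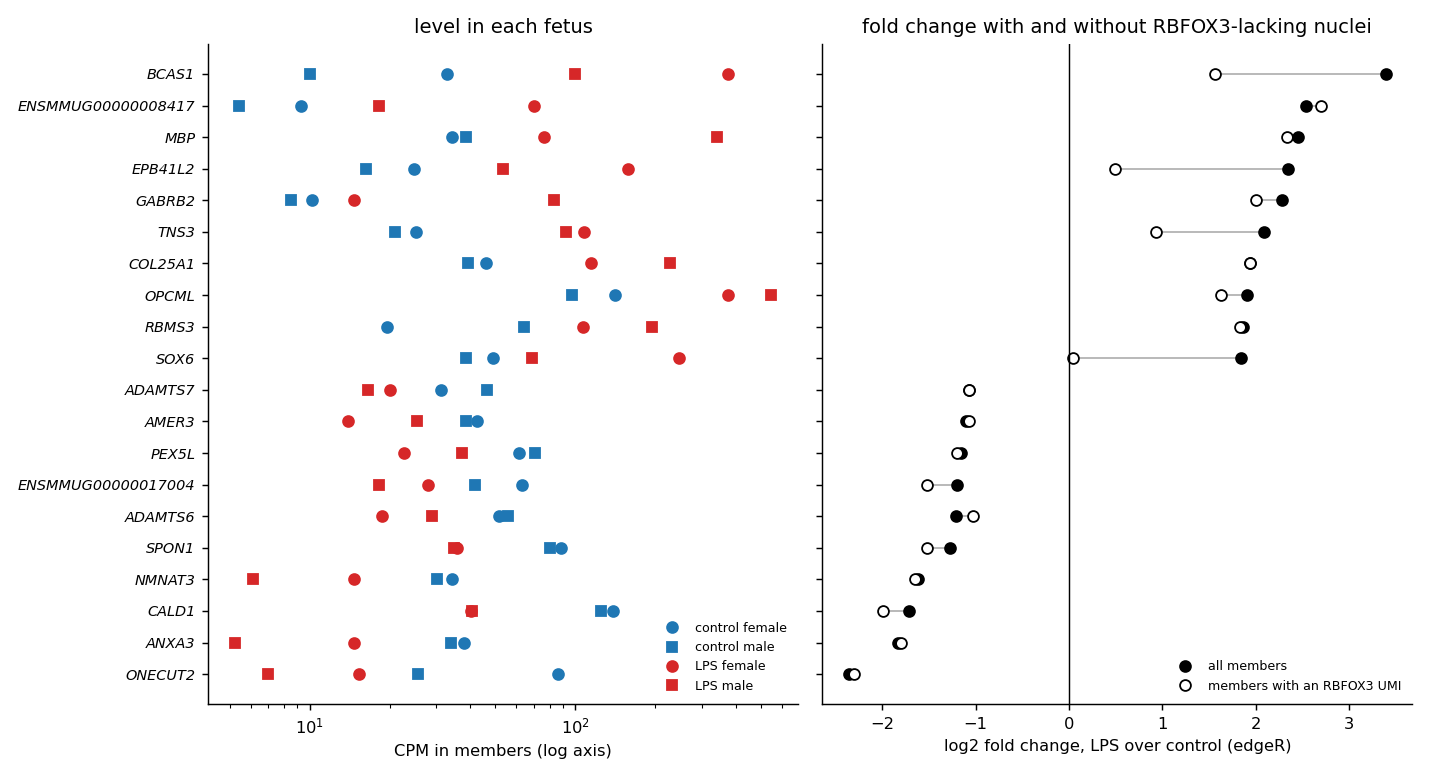
Left, level in CPM (log axis) of the 20 genes named for their fold in the CHRM3 NTF3 nuclei of each fetus, and right, log2 fold change of LPS over control in all these nuclei (filled) and in those with an RBFOX3 UMI (open). The lower genes keep their fold without the nuclei lacking RBFOX3, while BCAS1, EPB41L2, TNS3 and SOX6 move towards 0.

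No gene of these lists was called in the unblocked edgeR test, so the lists are given by their medians and counts. A list of genes higher after LPS in granule cells was chosen by the study on these same samples and is not independent evidence of a direction. Of its members 8 were tested, and all 8 had a positive log2 fold change with a median of 1.15, and 3 had both LPS fetuses above both controls, a pattern that 11.1% of all genes tested had. OPCML and RUNX1T1 had an unadjusted p under 0.05. RUNX1T1, a transcriptional corepressor, stood at 86.8, 130.1, 393.0 and 157.0 CPM. Of the corresponding lower list, chosen in the same way, FSTL4 and EBF3 were genes that the rule used. The other 8 all had a negative log2 fold change with a median of -0.60, and 1 had both LPS fetuses below both controls, against 6.94% of all genes tested. KLHL29 had the lowest log2 fold change of these, -1.02, at 1765, 4666, 1857 and 1234 CPM, where the control male set the difference.

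The median log2 fold change of lists of granule cell biology is given without the genes that the rule used. It was 0.05 for 15 granule identity genes, -0.05 for 13 markers of maturing granule cells, 0.14 for 6 neurotrophin and receptor genes, -0.01 for 12 genes of muscarinic signalling, 0.02 for 17 cadherins and catenins, 0.07 for 12 calsyntenins, neurexins and partners and -0.16 for 10 sulfotransferases. SORCS3, a sorting receptor of the neurotrophin list, was at 13.0, 33.3, 52.6 and 77.6 CPM (log2 fold change 1.52, SE 0.49). In the nuclei with RBFOX3 the log2 fold change of SORCS3 was 0.88 (edgeR unadjusted p = 0.12), and 46 of its 89 UMIs in the LPS male lay in nuclei without RBFOX3. With sex as a block SORCS3 was called (edgeR adjusted p = 0.032), but not with RBFOX3 asked for as well. The median was 0.14 for 18 glutamate receptor genes, 0.03 for 5 GABA-A receptor subunits, 0.04 for 21 genes of migration and guidance and -0.02 for 19 genes of the synaptic vesicle cycle.

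Markers of other cell types were few in this test. The median log2 fold change was 1.31 for 3 oligodendrocyte markers, 0.49 for 6 Purkinje cell markers, all 6 of them positive, 0.48 for 4 astroglial markers, 3 of them positive, and 2.92 for 2 choroid plexus markers. It was -0.04 for 2 markers of proliferation other than MKI67 and TOP2A, which the rule used. Of the types with 1 marker tested, the log2 fold change was 0.88 for inhibitory interneurons, 0.31 for endothelium, 0.08 for fibroblasts, -0.15 for microglia and -0.50 for unipolar brush cells. The part of these cell types in the LPS differences was not tested.

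Of 11 hedgehog receptors and effectors 8 were tested, with a median of -0.01. PTCH1, the receptor and target of the pathway, stood at 102.2, 185.8, 83.3 and 170.0 CPM, higher in the males. Of 23 genes of the inflammatory response 7 passed the filter on low counts, with a median of -0.15. NFKB1 stood at 42.3, 52.6, 56.6 and 68.0 CPM (log2 fold change 0.38, SE 0.32), and RELB, of the noncanonical NF-kB pathway, at 7.43, 17.8, 2.66 and 5.23 CPM (log2 fold change -1.65, SE 0.73). Of 15 immediate early and heat shock genes 5 were tested, with a median of 0.12.

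The last comparison asked whether the LPS difference in the CHRM3 NTF3 nuclei was another one than in the nuclei of the other 5 lists, with the fetus as a block. Of 12815 genes tested by edgeR none was called for this interaction (0%), with 568 at an unadjusted p under 0.05 (4.43%). The other lists held 934 list E nuclei in the LPS male against 94, 95 and 41 in the other fetuses. The interaction therefore also takes in this difference in mix. Against lists B and D only, edgeR called 0 of 11580 genes. By DESeq2 there were 3 calls, TNS3, FRMD4A and XYLT1, and 116 genes had an unadjusted p under 0.05. Single fetuses moved the edgeR count, which was 572 without the LPS female and 60 without the LPS male, in fits that assume the lone LPS fetus to vary like the controls. Of the lower genes, PEX5L had an interaction log2 fold change of -1.20 (edgeR adjusted p = 0.47) and CALD1 of -0.999 (adjusted p = 0.98). BCAS1 had 3.75 (adjusted p = 0.28).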

How the data were processed

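The authors deposited 1 matrix per library of unnormalized UMI counts, with every barcode kept and no pooling. The study's methods name Cell Ranger 5.0 with intronic reads counted and the rhesus build Mmul_8.0.1, while the submitters' processing notes name Cell Ranger 4. The ambient RNA correction that the study describes is not part of these counts, and strand handling was not given in the sources used here. Groups, sex and age came from the labels, which give no replicate numbers.

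The rule on genes detected per list was applied to each barcode as deposited. The nuclei and gene lists were chosen with earlier results of these data known. Doublets were scored by Scrublet in scanpy 1.11.5 and kept in the main results. Its automatic threshold marked 0% and 0.0256% of the 2 male libraries and was replaced there by the median of the female thresholds (0.189). This marked 5.33% to 7.39% of each library and 7 to 21 of the CHRM3 NTF3 nuclei. Free RNA was profiled in barcodes with at most 100 UMIs, and its share in these nuclei was the 0.25 quantile of the ratio, over markers of other cell types with 20 or more free UMIs, of their level in the nuclei to that in free RNA.

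Per fetus, UMIs were summed over nuclei. Testing was by quasi-likelihood in edgeR 4.0.16 (R 4.3.3), after filterByExpr and TMM normalization, with Benjamini-Hochberg adjustment over all genes tested. As another tool, DESeq2 1.42.0 was run. Levels are plain CPM of summed UMIs, and ratios used a pseudocount of 1 CPM. The standard error of a fold change was its size divided by the root of the F statistic. The 5 list C genes, the genes with the highest and lowest folds as described with the results, the 4 members of each list with the highest level and the 15 genes highest against the other lists were named by rule. The 15 lowest genes, the genes of developmental stages, DGKG, TTR, RUNX1T1, SORCS3, RELB, FSTL4, EBF3, the 9 genes called with both the block and RBFOX3 and the genes named only for being highest or lowest of the 6 lists were chosen after their values were seen.

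Precision follows from 2 fetuses per group. On simulated data with the real means and library sizes, in which 200 of 9632 genes were changed, edgeR recovered 2.47% of those given a log2 change of 1, 35.7% at a log2 change of 2 and 93.7% at 4, and called 11 unchanged genes. For the interaction, over 12815 genes, it called 54 of 200 changed and 5 unchanged genes. Both simulations gave every gene the same dispersion (0.158) and held no differences between sexes, fetuses or lists. In the real data the sexes stood apart and genes differed in spread. The simulated shares therefore do not tell how often changes of these sizes would be called in the real data. Alternatives were another minimum of genes (1000), 3 or more list C genes, doublets or free RNA removed, thinning to 1000 or 2000 UMIs, another normalization, no filter on low counts, sex as a block, and each library left out. Listed genes with no row in the files under their symbol were left out. The genome sequence was not used here, so no positions or sequences are given.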

Additional observations from a re-analysis of the deposited data

Results flagged for a closer look

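Values whose direction after LPS was opposite in the female and the male pair are given here, as log2 ratios of LPS to control. CHRM3 was at 0.71 in the female pair and at -1.19 in the male pair. CLSTN2 was at 0.10 and -1.13, CDH6 at -0.36 and 1.47, and CHST9 at -0.25 and 0.33. NTF3 was below 0 in both pairs. The share of CHRM3 NTF3 nuclei with a UMI of list B, after thinning to 1000 UMIs, was lower by 8.16 percentage points in the LPS female than in the control female (a difference of -8.16) and higher by 18.7 in the LPS male than in the control male. For list D the differences were -8.20 and 5.44. The difference between the pairs was not tested, since each pair holds 1 fetus per group, and sex, age and library cannot be told apart in it.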

How the results depend on the processing

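Each of the 4 libraries weighs on every value, and a log2 change of 1 was seldom called in simulated data of this size. In the ranges below each of the 4 libraries was left out in turn. The share of CHRM3 NTF3 nuclei ranged from -0.62 (without the LPS female) to -0.05 (without the LPS male) on the log2 scale, and on thinned counts, where leaving out a library was added after seeing the data, from -0.73 to 0.14, reversed without the LPS male. The other alternatives for the share kept its direction, from -0.40 with RBFOX3 asked for to -0.01 with list E nuclei left out of the denominator, and none passed the threshold. The count of genes called between LPS and control, 0 in the main edgeR test, was 1 with DESeq2, 21 without a filter on low counts and 26 with sex as a block. It was 9 with the block and RBFOX3 asked for together, also chosen after seeing the data, and 0 to 3 with a library left out, the 3 being EPB41L2, BCAS1 and TTR without the LPS male. The interaction count, 0 in the main test, was 3 with DESeq2, 119 without the filter and 0 to 572 with a fetus left out. The cause of these changes was not tested.

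For nuclei with a list B gene the difference ranged from -8.32 (without the LPS male) to 18.9 percentage points (without the LPS female). For list D it ranged from -7.88 (without the control male) to 5.13 (without the control female), and it was 3.65 on the counts as deposited and 0.36 with RBFOX3 asked for. The log2 fold change ranged from -1.05 to 0.50 for CHRM3, from -1.21 to 0.11 for CLSTN2, from -0.064 to 1.23 for CDH6 and from -0.29 to 0.34 for CHST9. With free RNA subtracted CHRM3 was at 0.017 and CHST9 at 0.13. CHST9 was also positive with doublets removed (0.0012), with sex as a block (0.020), without the condition on the 4 barred genes (0.035) and with RBFOX3 asked for (0.037), the last 2 chosen after seeing the data. The 20 genes named for their fold and NTF3 kept their direction under the alternatives that gave a value, but not their size; GABRB2 gave none with free RNA subtracted. A group with a library left out holds 1 fetus, assumed to vary like the other group. With a library left out the log2 fold change of BCAS1 ranged from 2.02 (without the LPS female) to 4.67 (without the control female), and it was -1.06 for ONECUT2 without the control female and 1.09 for MBP and 0.65 for GABRB2 without the LPS male. Without the LPS female the log2 fold change was 1.24 for EPB41L2, 0.54 for SOX6 and 1.15 for ENSMMUG00000008417. Without the condition on the barred genes it was 0.39 for RBMS3, -0.45 for SPON1 and 1.41 for BCAS1. No paired analysis by replicate number was possible because the labels carry none; sex served as the block.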
